A study of Mus musculus with 6 samples.

Results

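The genes described here are 10 subunits, inhibitors and regulators of nuclear factor kappa B (NF-κB) in MC3T3-E1 cells with and without cyanidin-3-O-glucoside (C3G), a plant pigment of the anthocyanin class. They were chosen by name, and all 10 were found among the 11234 genes with a deposited expression value. *Nkiras2* was included because it stands in the study's list of genes lower with C3G, which was called on these same libraries, so its difference between the groups is given as a description of these sequencing libraries with no test. By quantitative PCR the study reported the opposite direction for *Nkiras2* (printed there as *Nkieas2*), a higher level in treated cells. Those PCR values were not available here, and the disagreement was not tested. MC3T3-E1 is a preosteoblast line, labelled as derived from strain C57BL/6 and used at passage 4. The 3 treated cultures were exposed to C3G at 100 μmol/L for 24 h and the 3 control cultures were not. All were first kept in serum-free medium for 24 h, and complete medium with serum replaced it when the exposure began. The vehicle that the control cultures received is not named in the sources used here, and the sample labels name no inflammatory stimulus for either group. The sources also do not say whether the 3 cultures of a group were grown on separate occasions, so p values measure only the spread between these samples. Expression is given in FPKM, the fragments of a gene scaled to the length of its gene model and to all mapped fragments of the library. This scaling leaves in place a dependence on GC content that differed between libraries (described below), so comparisons of levels between genes are approximate. Where values of single libraries follow each other, they stand in the order of replicates 1, 2 and 3. How many reads lie behind a value is unknown.

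NF-κB is a family of dimeric transcription factors that is held inactive in the cytoplasm by inhibitor proteins of the IκB family. Signals such as tumor necrosis factor activate an IκB kinase, the inhibitors are phosphorylated and degraded, and the freed dimers enter the nucleus. In the other branch of the pathway, the precursor encoded by *Nfkb2* is cut to release dimers with RelB. Several genes that hold the pathway back are themselves switched on by NF-κB, among them *Nfkbia* and *Tnfaip3*, which closes a negative feedback loop. In bone, NF-κB is required in osteoclast precursors, and in osteoblast lineage cells it is known for restraining matrix formation under inflammation.

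NF-κB dimers bind short DNA elements called κB sites, and stretches of this pattern near the starts of the genes are shown first because NF-κB is known to switch on some of its own inhibitors through them. RefSeq start sites on GRCm38 were available for *Nkiras2*, *Nfkbia*, *Nfkbib*, *Nfkb2*, *Rela* and *Tnfaip3*, in 9 windows of 250 bases before to 50 bases after a start, 3 of them for *Nfkb2* and 2 for *Tnfaip3*. No window was held for *Nkiras1*, *Nfkb1*, *Relb* and *Ikbkb*. The κB consensus, searched on both strands, was matched in 4.51% of all 32851 such windows, and in 5 of the 9 windows of the members. These 5 belong to *Nfkbia*, *Nfkb2* and *Tnfaip3*, overlapping *Nfkb2* windows share 1 site, and the other *Tnfaip3* window held no match. All its matches are also matches of a looser pattern, GGG and CC separated by any 5 bases, which 50.8% of all windows hold. The matched bases stand in capitals, with 10 bases on each side, read in the direction of the gene.
*Nfkbia*, chr12:55492657-55492686, minus strand: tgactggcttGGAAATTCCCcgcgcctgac
*Nfkb2*, chr19:46304688-46304717, plus strand: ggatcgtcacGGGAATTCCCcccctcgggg
*Nfkb2*, chr19:46304716-46304745, plus strand: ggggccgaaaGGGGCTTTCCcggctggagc
*Nfkb2*, chr19:46305449-46305478, plus strand: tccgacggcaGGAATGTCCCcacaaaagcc
*Nfkb2*, chr19:46305695-46305724, plus strand: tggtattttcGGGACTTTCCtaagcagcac
*Tnfaip3*, chr10:19015516-19015545, minus strand: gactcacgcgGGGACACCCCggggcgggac
*Tnfaip3*, chr10:19015403-19015432, minus strand: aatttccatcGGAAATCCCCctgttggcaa
The *Nfkbia* match begins 29 bases before the start site. In *Nfkb2*, which has 3 start sites in RefSeq, a further match lies on the opposite strand 1 base from the first one shown. The windows of *Nkiras2*, *Nfkbib* and *Rela* held no match of the consensus. Those of *Nkiras2* and *Nfkbib* lie within the annotated genes, which begin at 100619244 and 28767512, and no window covered these positions. For *Nkiras2* the first 171 bases of its window are shown, chr11:100622705-100622875 on the plus strand. In capitals stand 2 overlapping matches of the looser pattern, of 6 in the whole window.
*Nkiras2*: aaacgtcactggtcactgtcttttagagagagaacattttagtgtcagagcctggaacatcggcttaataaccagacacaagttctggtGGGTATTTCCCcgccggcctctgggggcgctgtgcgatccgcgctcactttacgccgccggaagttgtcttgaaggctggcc
A match describes letters only, and no binding was measured in these cells.

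The median FPKM of a library was 5.80 to 7.40. Control replicate 1 stood apart, with Pearson's r of 0.886 to 0.939 to the other libraries across genes, against 0.968 to 0.992 among the other 5. Its departure from control replicates 2 and 3 followed the GC content of the transcript across genes (Spearman's rho 0.748), and the departure of C3G replicate 1 from C3G replicates 2 and 3 did so too (rho 0.631). Of 11 osteoblast markers 10 were listed, and their summed FPKM was 2505 to 7594 in control libraries and 2531 to 3474 in C3G libraries. Of 7 macrophage markers *Cd68* alone was listed, at 0.144 to 1.08 FPKM in control libraries and 0.720 to 1.253 FPKM in C3G libraries, and no endothelial or adipocyte marker was listed. *Cdh1* was the 1 listed of 5 epithelial markers, with 0.524 to 0.929 FPKM in control libraries and 0.894 to 1.37 FPKM in C3G libraries. Of 4 cartilage markers 3 were listed, with a summed FPKM of 92.8 to 211 in control libraries and 88.7 to 112 in C3G libraries. In bulk RNA, fewer cells of a type and less RNA per cell cannot be told apart.

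The differences between C3G and control were tested with limma on log2(FPKM + 1) over all 11234 genes, and a gene was called where the unadjusted p was under 0.05 and the fold change 1.2 or more. On this scale the change of genes with low FPKM is understated. Among all genes 0.65% were called, 0.401% as higher and 0.249% as lower, and after Benjamini-Hochberg adjustment over all genes 0 passed. Of the 9 members other than *Nkiras2*, 0 were called by limma, 0 had an unadjusted p under 0.05 against 0.659% of all genes, and the ordinary linear model without moderation also called 0. Their limma p values were 0.363 to 0.864, and their adjusted p was 0.992. Their log2 fold changes were -0.21 to 0.08, with a median of -0.05 beside 0.06 over all genes. None of the 9 reached a fold change of 1.2, which 22.3% of all genes did, and in none were the groups free of overlap, against 4.02% of all genes. The 95% intervals of the 9 differences all included 0. They all lay within a 2-fold change in either direction, and 0 of 9 lay within a 1.2-fold change, so each interval held a change of that size in at least 1 direction. The two-sided exact permutation test, whose smallest p is 0.1 for 3 libraries against 3, gave the 9 members p = 0.4 to 1.

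**Figure D1:**
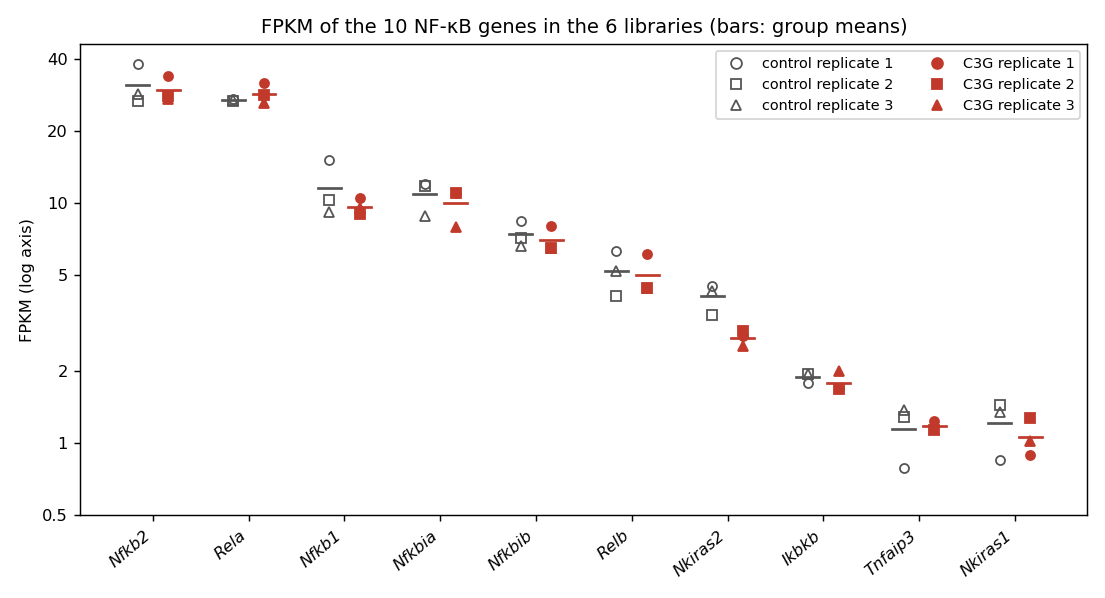
FPKM of the 10 genes (log axis) in each library, with open symbols for control, filled symbols for C3G, shapes for replicate numbers and bars for group means. *Nkiras2* is the gene whose symbols do not overlap between the groups; *Nfkb2* and *Rela* are highest, and *Tnfaip3* and *Nkiras1* lowest.

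*Nkiras2* and *Nkiras1* encode small Ras-like GTPases that bind the IκB proteins and slow their degradation. *Nkiras2* (ENSMUSG00000017837.12, chromosome 11 of GRCm38, 100619244 to 100627607, plus strand) had 4.52, 3.42 and 4.31 FPKM in replicates 1, 2 and 3 of the control, against 2.78, 2.93 and 2.53 FPKM in those of C3G. Every C3G library lay below every control library. The mean was 4.08 ± 0.586 FPKM (SD, n = 3) without C3G and 2.75 ± 0.204 FPKM (SD, n = 3) with it, a log2 fold change of -0.43 or a 1.35-fold lower level on the scale of FPKM + 1. The log2 ratio of the mean FPKM values was -0.57. Without control replicate 1 the log2 fold change was -0.37. Such separation with C3G lower was found in 1.48% of all genes, and *Nkiras2* was chosen from this contrast. By fold change, the member nearest to it on the other side of the threshold of 1.2 was *Nfkb1*, 1.15-fold lower.

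*Nkiras1* (ENSMUSG00000021772.15, chromosome 14, 18271136 to 18284003, plus strand) was the lowest of the 10 genes. It had 0.848, 1.44 and 1.34 FPKM without C3G, against 0.895, 1.28 and 1.02 FPKM with it. The groups overlapped, with replicate 1 lowest in both. The log2 fold change was -0.09 ± 0.160 (SE, limma p = 0.578, exact permutation p = 0.6, 95% interval -0.47 to 0.29). It was -0.22 without control replicate 1, -0.02 without control replicate 2 and -0.28 after a correction for GC content, and it was called in none of these. *Nkiras2* was the higher of the pair in every library. The FPKM of *Nkiras2* was 5.33, 2.38 and 3.21 times that of *Nkiras1* in the control replicates and 3.11, 2.30 and 2.49 times in the C3G replicates, so this ratio overlapped between the groups. It was lower with C3G in 3 of 3 same-numbered pairs of libraries, which draws on the values that chose *Nkiras2*. The ratio was highest in control replicate 1, whose departure followed GC content across genes, and the GC content is 56.6% in *Nkiras2* and 42.0% in *Nkiras1*. The part of GC content in this ratio was not tested. The FPKM of both genes summed to 5.37, 4.86 and 5.65 without C3G and to 3.68, 4.21 and 3.54 with it. The groups did not overlap in this sum, which holds the values that chose *Nkiras2*.

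Both *Nkiras* genes share sequence with neighbours on the opposite strand, and whether strand was used in counting is not stated for these values. *Dnajc7*, which encodes a heat shock cochaperone, overlaps 8.02% of the exon bases of *Nkiras2*. Its FPKM was 23.8, 28.7 and 26.9 in the control replicates and 20.6, 23.6 and 25.99 in the C3G replicates, a log2 fold change of -0.17 ± 0.162 (SE, limma p = 0.328, exact permutation p = 0.2). *Dnajc7* was thus several times higher than *Nkiras2*, and its groups overlapped, with C3G the lower in 3 of 3 same-numbered pairs, as in 11.6% of all genes. *Zfp385c*, not listed among the measured genes, overlaps 1.82% of the exon bases of *Nkiras2*. *Nkiras1* shares 1.91% of its exon bases with the ribosomal protein gene *Rpl15*, at 134 ± 13.3 FPKM (SD, n = 3) in control cells and 162 ± 43.1 FPKM (SD, n = 3) in C3G cells. It shares 13.1% with *Ube2e1*, a ubiquitin-conjugating enzyme gene at 12.3 ± 5.53 FPKM (SD, n = 3) and 14.1 ± 1.88 FPKM (SD, n = 3). Neither neighbour was called (limma p = 0.296 and p = 0.456, exact permutation p = 0.4 and p = 0.9). No 75-base stretch of the longest transcript of either *Nkiras* gene occurs in another gene's transcripts read in the same direction, and of the other members *Nfkb1* alone had such stretches (0.270% of its own).

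The genes whose profile over the 6 libraries was most like that of *Nkiras2* were *Crybb3*, *Ubl4a* and *Apex2*. Likeness was the root mean square difference of log2(FPKM + 1) after each gene was centred on its own mean, which was 0.0832, 0.101 and 0.104 for these genes and 0.356 for the median gene. *Crybb3*, a lens crystallin gene, had 0.738, 0.388 and 0.800 FPKM without C3G and 0.271, 0.389 and 0.301 FPKM with it. *Ubl4a*, which takes part in the insertion of membrane proteins, had 7.79, 7.06 and 7.41 FPKM without C3G, against 5.82, 6.18 and 5.69 FPKM with it. *Apex2*, a DNA repair nuclease gene, had FPKM values of 2.49, 1.76 and 2.18 (control) and 1.81, 1.56 and 1.45 (C3G). All 3 are lower with C3G on average because likeness to *Nkiras2* chose them, and *Ubl4a* stands in the same list of the study.

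The IκB proteins hold NF-κB dimers in the cytoplasm. *Nfkbia*, which encodes IκBα (ENSMUSG00000021025.8, chromosome 12, 55489410 to 55492647, minus strand), had 11.97, 11.8 and 8.80 FPKM without C3G, against 10.97, 10.99 and 7.97 FPKM with it. Replicate 3 was the lowest in both groups, and the groups overlapped. Its log2 fold change was -0.11 ± 0.201 (SE, limma p = 0.594, exact permutation p = 0.5, 95% interval -0.59 to 0.36). It was 0.027 without C3G replicate 3 and -0.24 without control replicate 3. *Nfkbib*, which encodes IκBβ (ENSMUSG00000030595.15, chromosome 7, 28758251 to 28767512, minus strand), had FPKM values of 8.45, 7.18 and 6.59 (control) and 8.02, 6.50 and 6.50 (C3G). Here replicate 1 was the highest in both groups. The difference was -0.07 on the log2 scale ± 0.170 (SE, limma p = 0.694, exact permutation p = 0.5). It turned positive without control replicate 1 (0.017) and after a correction for GC content (0.046). *Nfkbib* shares 14.5% of its exon bases with *Ccer2* and 1.94% with the deacetylase gene *Sirt2*, both on the opposite strand. *Sirt2* had 7.54 ± 1.98 FPKM (SD, n = 3) in control cells and 7.28 ± 0.917 FPKM (SD, n = 3) in C3G cells, and *Ccer2* was not listed. *Nfkbia* was the higher of these inhibitor genes in 6 of 6 libraries, although their ranges over the libraries overlapped.

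Of the DNA-binding subunits, *Nfkb2* and *Rela* were the highest of the 10 genes. *Rela* encodes the main transactivating subunit, RelA (ENSMUSG00000024927.7, chromosome 19, 5637483 to 5648130, plus strand). It had 27.1, 26.6 and 26.8 FPKM without C3G, against 31.5, 28.2 and 26.03 FPKM with it. The SD of the control libraries was 0.261 FPKM (n = 3), while the C3G libraries lay on both sides of them. The log2 fold change was 0.08 ± 0.146 (SE, limma p = 0.591, exact permutation p = 0.4, 95% interval -0.26 to 0.43). *Rela* and *Tnfaip3* were the 2 members with a fitted difference above 0.

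*Nfkb1* encodes the precursor of the subunit that pairs with RelA (ENSMUSG00000028163.17, chromosome 3, 135584655 to 135691547, minus strand). It had FPKM values of 15.2, 10.3 and 9.15 (control) and 10.5, 8.96 and 9.51 (C3G). Control replicate 1 was far above the other 5 libraries, whose groups overlapped. The log2 fold change was -0.21 ± 0.212 (SE, limma p = 0.363, exact permutation p = 0.5, 95% interval -0.71 to 0.30), and without control replicate 1 it was -0.01. The difference between the group means of *Nfkb1*, the largest among the 9 tested members, therefore rested on that library.

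*Nfkb2*, the gene of the other precursor (ENSMUSG00000025225.14, chromosome 19, 46304320 to 46312385, plus strand), had 37.9, 26.6 and 28.6 FPKM without C3G, against 33.8, 28.0 and 27.2 FPKM with it. *Relb*, the gene of its partner RelB (ENSMUSG00000002983.17, chromosome 7, 19606217 to 19629438, minus strand), had FPKM values of 6.33, 4.11 and 5.22 (control) and 6.12, 4.43 and 4.42 (C3G). Replicate 1 was the highest of its group in both genes. Their log2 fold changes were both -0.05, with standard errors of 0.191 and 0.207 (limma p = 0.790 and p = 0.813, exact permutation p = 0.8 and p = 0.9). Both differences turned positive without control replicate 1, at 0.095 for *Nfkb2* and 0.075 for *Relb*. *Nfkb2* was 5.47 to 6.48 times as high as *Relb* in the control libraries and 5.52 to 6.32 times in the C3G libraries, so the ratio of these partners overlapped between the groups. Opposite-strand overlaps covered 11.6% of the exon bases of *Nfkb2* with a long noncoding RNA and 6.52% with *Psd*, neither of them listed.

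The sum of *Nfkb1*, *Nfkb2*, *Rela* and *Relb* was 86.5, 67.6 and 69.8 FPKM without C3G, against 82.0, 69.6 and 67.1 FPKM with it. *Nfkbia* and *Nfkbib* summed to 20.4, 19.0 and 15.4 FPKM in control libraries and to 19.0, 17.5 and 14.5 FPKM in C3G libraries. Both sums overlapped between the groups and were highest in replicate 1. Per library, *Nfkbia* reached 0.441, 0.443 and 0.328 times the FPKM of *Rela* in the control replicates and 0.348, 0.390 and 0.306 times in the C3G replicates. These ratios of inhibitor to subunit transcripts overlapped between the groups as well. Of the 9 tested members, *Nfkbia* and *Nfkbib* were lower with C3G in 3 of 3 same-numbered pairs of libraries, as were 11.6% of all genes, and the sum of both and the ratio of *Nfkbia* to *Rela* followed them. The other 7 tested members went both ways, with C3G lower in 2 of 3 pairs for *Nkiras1*, *Nfkb1*, *Nfkb2*, *Relb*, *Ikbkb* and *Tnfaip3* and in 1 of 3 pairs for *Rela*. The ratios and sums were not tested, and with the replicate number as a block neither *Nfkbia* nor *Nfkbib* was called (limma adjusted p = 0.794 and adjusted p = 0.847).

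**Figure D2:**
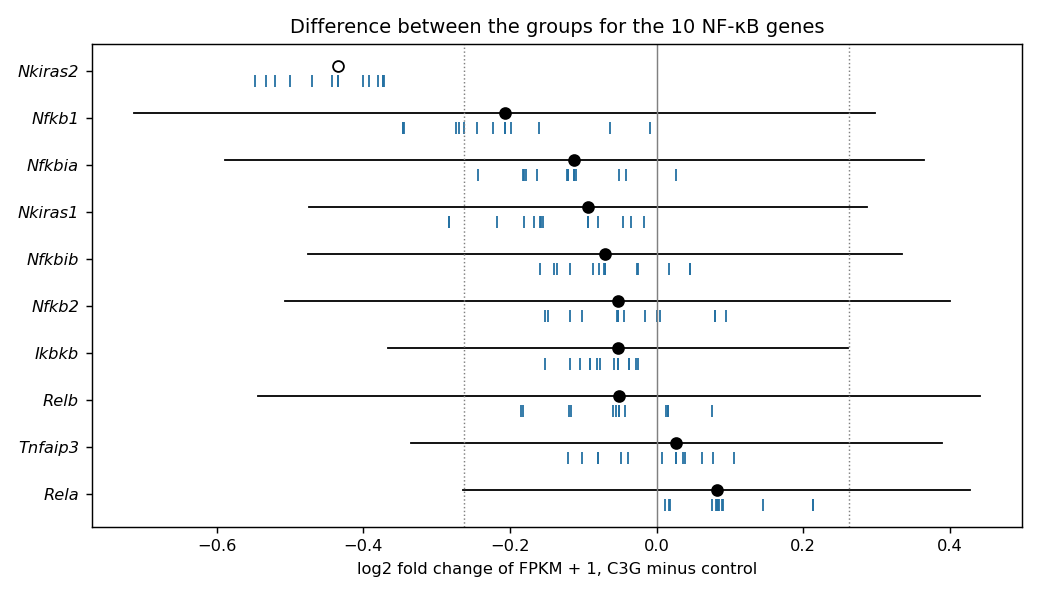
Log2 fold change of FPKM + 1 (C3G minus control) for each gene, as a circle with its 95% limma interval; *Nkiras2* is an open circle without interval because it was chosen from this contrast. Blue ticks give the value under each alternative analysis except the ratio of group means, and dotted lines mark a fold change of 1.2. The intervals of the 9 tested genes all cross 0.

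*Ikbkb* encodes a catalytic subunit of the IκB kinase (ENSMUSG00000031537.15, chromosome 8, 22659212 to 22706589, minus strand). It had 1.77, 1.95 and 1.94 FPKM without C3G, against 1.69, 1.68 and 1.99 FPKM with it. C3G replicate 3 was the highest of all libraries and the other C3G replicates were the lowest. The log2 fold change was -0.05 ± 0.132 (SE, limma p = 0.703, exact permutation p = 0.4). Its 95% interval, -0.37 to 0.26, was the narrowest among the 9 tested members. *Tnfaip3* encodes a ubiquitin-editing enzyme that ends signaling from tumor necrosis factor receptors (ENSMUSG00000019850.11, chromosome 10, 19000910 to 19015657, minus strand). It had FPKM values of 0.785, 1.28 and 1.38 (control) and 1.23, 1.14 and 1.15 (C3G). The C3G libraries lay inside the range of the control libraries. Its log2 fold change was 0.03 ± 0.152 (SE, limma p = 0.864, exact permutation p = 1), and it reversed without control replicate 1 (-0.10), under quantile normalization (-0.05) and under median centring (-0.04).

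In order of their mean over the 6 libraries, the members were *Nfkb2* (30.4 FPKM), *Rela* (27.7 FPKM), *Nfkb1* (10.6 FPKM), *Nfkbia* (10.4 FPKM), *Nfkbib* (7.21 FPKM), *Relb* (5.11 FPKM), *Nkiras2* (3.42 FPKM), *Ikbkb* (1.84 FPKM), *Tnfaip3* (1.16 FPKM) and *Nkiras1* (1.14 FPKM). The median gene had 7.20 FPKM. The ranges over the libraries did not overlap between *Rela* and *Nfkb1*, between *Nfkbib* and *Relb*, between *Nkiras2* and *Ikbkb*, or between *Ikbkb* and *Tnfaip3*. The other neighbours in this order overlapped, and *Nfkb1* and *Nfkbia*, and *Tnfaip3* and *Nkiras1*, each exchanged places in 3 of 6 libraries.

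The GC content of the members ranged from 42.0% in *Nkiras1* to 59.4% in *Nfkb2* and *Rela*, against a median of 49.6% over all genes. Control replicate 1 exceeded control replicates 2 and 3 by 0.44 in *Nfkb2*, 0.38 in *Relb* and 0.26 in *Nfkbib* on the log2 scale, all of them rich in GC, but by 0.02 in *Rela*. In *Nkiras1* and *Tnfaip3*, which are poorer in GC, the same difference was -0.37 and -0.39. *Nfkb1* had 44.9% GC and a departure of 0.60, the largest of the members and opposite to the trend over all genes. The departure of *Nkiras2* was 0.19 in the control group and 0.02 in the C3G group. The part of GC content in the differences between the groups was not tested beyond the corrected fit, in which *Nkiras2* had a log2 fold change of -0.37, *Nfkb1* one of -0.35 and *Nkiras1* one of -0.28, further from 0 than the -0.09 of *Nkiras1* without the correction.

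**Figure D3:**
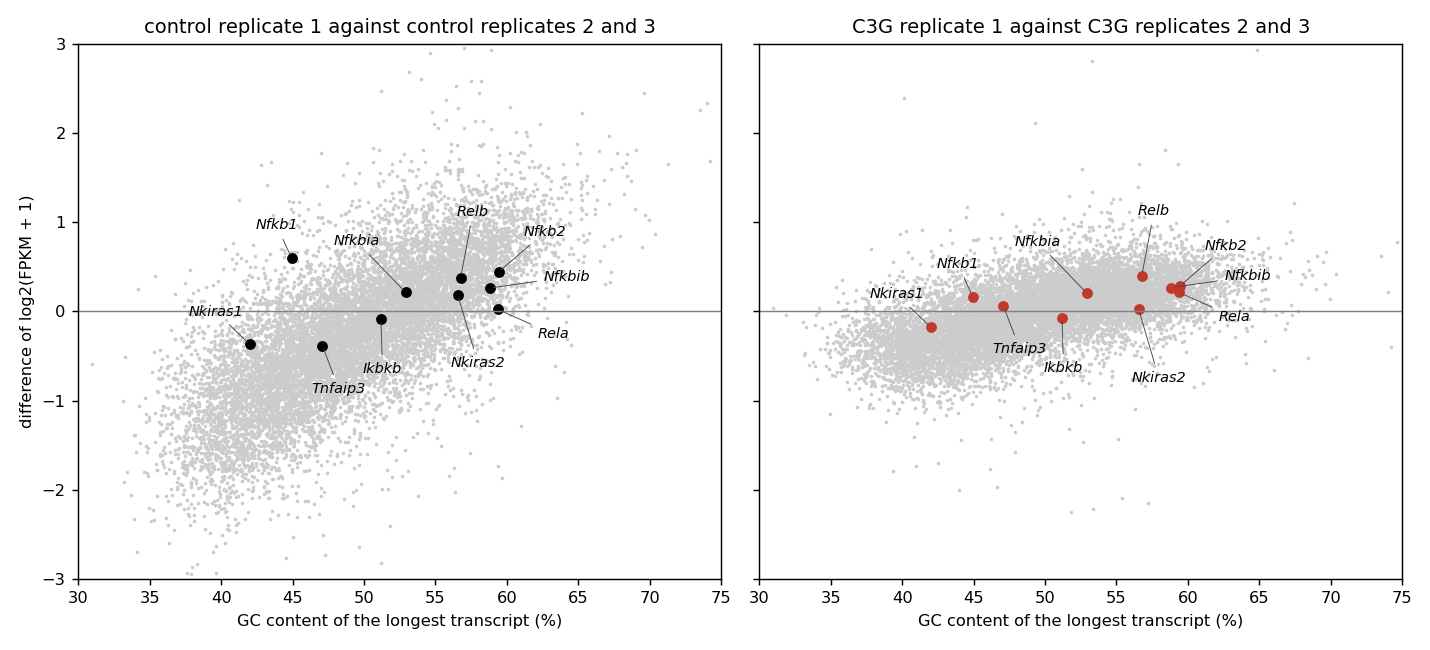
Difference of log2(FPKM + 1) between replicate 1 and the mean of replicates 2 and 3 of the same group (control left, C3G right) against the GC content of the longest transcript in percent. Grey points are all genes, coloured points the 10 members; 21 genes in the left panel and 4 in the right lie beyond 3 and are not shown, nor is 1 gene beyond the GC axis. *Nfkb1* stands above the trend in the left panel.

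The rest of the pathway was described by 103 further genes in 6 lists grouped by role, of which 80 were measured. Of the 80, limma called 0 higher and 1 lower, beside 0.65% of all genes in either direction, and 0 passed the adjustment. Their median log2 fold change was 0.06, as over all genes. The gene called was *Cx3cl1*, the chemokine fractalkine, with 23.97, 22.4 and 27.1 FPKM without C3G, against 6.81, 3.61 and 5.23 FPKM with it. It was listed as an NF-κB target with its fall in these libraries already known, so its place in the list is no independent result. *Cx3cl1* differed by -2.06 on the log2 scale, with limma p = 4.43e-05 before and 0.497 after adjustment and an exact permutation p of 0.1, and its limma p was 1.97e-05 to 0.000401 over the alternatives with moderation. The other 23 measured targets included 0 called genes.

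**Figure D4:**
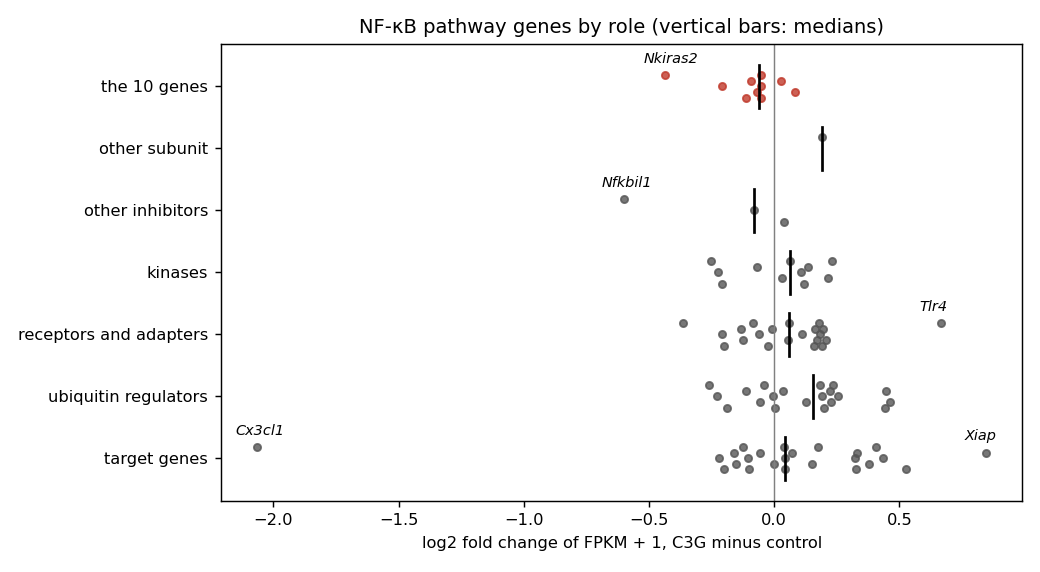
Log2 fold change of FPKM + 1 (C3G minus control) of the 10 members and of the measured genes of each further list; vertical bars are medians. The lists centre between -0.08 and 0.19, and *Cx3cl1* at -2.06 is the gene farthest from 0.

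Among receptors and adapters, 21 of 25 were measured and 0 called, with a median log2 fold change of 0.06. The highest were *Tnfrsf12a*, the receptor of the cytokine TWEAK, at 76.4 ± 37.4 FPKM (SD, n = 3) without and 84.7 ± 38.9 FPKM (SD, n = 3) with C3G, and the lymphotoxin beta receptor gene *Ltbr*, at 73.1 ± 20.4 FPKM (SD, n = 3) and 65.4 ± 8.83 FPKM (SD, n = 3). *Tlr4*, the receptor of bacterial lipopolysaccharide, had the largest difference of this list. It had FPKM values of 0.261, 6.63 and 1.52 (control) and 1.01, 7.27 and 4.83 (C3G). The level was lowest in replicate 1 and highest in replicate 2 of both groups, and C3G was the higher of each same-numbered pair, as in 14.2% of all genes. *Tlr4* differed by 0.67 on the log2 scale (limma p = 0.409, exact permutation p = 0.6), and with the replicate number as a block it was called (limma p = 0.0367, adjusted p = 0.794). With the block and the GC correction together it was not called. The RANK receptor gene *Tnfrsf11a* was not listed.

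Of the kinases 11 of 12 were measured and 0 called. *Mapkapk2*, a stress-activated kinase gene, had 41.9 ± 9.20 FPKM (SD, n = 3) in control and 39.5 ± 4.81 FPKM (SD, n = 3) in C3G cells, and *Tab2*, an adapter of the kinase that activates the IκB kinase, had 32.1 ± 2.02 FPKM (SD, n = 3) and 32.7 ± 0.838 FPKM (SD, n = 3). *Chuk*, which encodes the other catalytic subunit of the IκB kinase and was named after its values were seen, had 11.1, 27.1 and 24.01 FPKM without C3G and 15.1, 24.8 and 24.3 FPKM with it (limma p = 0.781, exact permutation p = 0.8). Its mean over the 6 libraries was 21.1 FPKM, above those of *Nfkb1*, *Relb* and *Ikbkb*. *Ikbke*, a kinase related to *Ikbkb*, had 2.101, 1.31 and 1.35 FPKM without C3G, against 1.26, 1.12 and 1.08 FPKM with it. The groups of *Ikbke* did not overlap, but the log2 fold change of -0.25 did not pass the test (limma p = 0.162, exact permutation p = 0.1). In 3 of the 80 pathway genes (*Cx3cl1*, *Ikbke* and *Spata2*) every C3G library lay below every control library, and in *Ube2v1* every one lay above, beside 1.48% and 2.55% of all genes.

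All 20 ubiquitin regulators were measured and 0 were called, with a median log2 fold change of 0.16 beside 0.06 over all genes. Without control replicate 1 the median over all genes was -0.01. *Skp1a* and *Cul1*, components of the ligase that marks phosphorylated IκB for degradation, had 71.8 ± 35.5 FPKM (SD, n = 3) and 35.7 ± 15.4 FPKM (SD, n = 3) in control cells and 88.1 ± 5.07 FPKM (SD, n = 3) and 39.3 ± 6.59 FPKM (SD, n = 3) in C3G cells. Control replicate 1 was the lowest library in both, at 31.0 and 17.9 FPKM. *Spata2*, an adapter of the deubiquitinase CYLD, had FPKM values of 8.67, 8.82 and 8.29 (control) and 7.86, 7.03 and 6.72 (C3G), and *Ube2v1*, a cofactor in building ubiquitin chains, had 9.50, 10.4 and 9.65 FPKM without C3G and 11.9, 11.1 and 11.02 FPKM with it. Both were named because their groups do not overlap, and neither passed the test (limma p = 0.166 and p = 0.237, exact permutation p = 0.1 for both). The largest difference of this list was that of the ubiquitin ligase gene *Itch*, 0.46 on the log2 scale (limma p = 0.378, exact permutation p = 0.7), whose control replicate 1 was at 2.26 FPKM against 7.11 to 10.7 FPKM in the other libraries.

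Of the further inhibitors 3 of 5 were measured and 0 called. *Nfkbil1* had FPKM values of 21.7, 7.08 and 6.82 (control) and 8.10, 5.97 and 5.46 (C3G), with control replicate 1 far above the rest, and its difference of -0.60 on the log2 scale did not pass the test (limma p = 0.203, exact permutation p = 0.4). *Nfkbie*, which encodes IκBε, had 9.18 ± 3.48 FPKM (SD, n = 3) and 8.40 ± 1.77 FPKM (SD, n = 3). The remaining subunit gene, *Rel*, was low, at 0.803, 2.96 and 2.05 FPKM without C3G, against 1.39, 2.91 and 2.48 FPKM with it (0.19 higher on the log2 scale, limma p = 0.580, exact permutation p = 0.7).

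Among NF-κB target genes 24 of 40 were measured. The highest were the cyclin gene *Ccnd1*, at 125 ± 17.8 FPKM (SD, n = 3) in control and 126 ± 23.3 FPKM (SD, n = 3) in C3G cells, and *Tapbp*, which serves antigen presentation, at 82.5 ± 32.7 FPKM (SD, n = 3) and 73.2 ± 17.2 FPKM (SD, n = 3). The inflammatory targets *Il6*, *Tnf*, *Il1b*, *Cxcl1*, *Ccl5*, *Icam1* and *Nos2*, named here because they are the usual readouts of the pathway and after their absence was seen, were not listed in these libraries. Others of the list were measured, and these too are named after their values were seen. The adhesion molecule gene *Vcam1* had a mean of 50.1 FPKM over the 6 libraries, the cytokine gene *Csf1* one of 58.3 FPKM and the superoxide dismutase gene *Sod2* one of 18.2 FPKM. The complement gene *C3* had 4.52 FPKM, the prostaglandin synthase gene *Ptgs2* 3.50 FPKM and the chemokine gene *Ccl2* 0.988 FPKM. None of these 6 was called (limma p = 0.220 to 0.915, exact permutation p = 0.5 to 0.9). In the deposited tables the higher of the group means was at least 0.5 FPKM for every gene. *Xiap*, an inhibitor of apoptosis and also named after its values were seen, had FPKM values of 1.81, 1.48 and 1.44 (control) and 4.16, 1.40 and 6.97 (C3G). C3G replicate 2 lay below all control libraries while the other C3G libraries lay above them. The difference for *Xiap* was 0.85 on the log2 scale (limma p = 0.0807, exact permutation p = 0.4), and without C3G replicate 2 it was 1.32 (limma p = 0.00217, adjusted p = 1.00).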

How the data were processed

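RNA of 6 MC3T3-E1 cultures was sequenced from stranded libraries, 3 with C3G and 3 without. Gene FPKM values were deposited by the authors, who calculated them with Ballgown and checked the reads with FastQC. The submitters' processing notes also name cutadapt, HISAT2 2.1.0, StringTie and STAR 2.5.2b without roles, and the build hg19, although all identifiers are mouse genes. FPKM gives no depth: among low genes with 1 annotated transcript, 16.0% to 17.7% of values lay within 0.05 of a whole multiple of the best common step, against 15.3% to 16.7% after random jitter.

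Identifiers were matched without version to GENCODE M21 (GRCm38): 11211 of 11234 genes had a symbol, and 9812 carried the M21 version number. Coordinates, GC content and overlaps are from that annotation, promoter windows from RefSeq (GRCm38.p6).

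The fit was limma 3.58.1 on log2(FPKM + 1) (trend, group as the only term, all 6 libraries, no filter) in R 4.3.3, with Benjamini-Hochberg adjustment over all genes. Single genes had a two-sided exact permutation test (scipy 1.17.1). The study states Student's tests in general with thresholds of 0.05 for p and 1.2 for the fold; here p was taken as unadjusted. The fit was tested on simulated data. Same-numbered libraries departed together from their group means (r across genes 0.653, 0.580 and 0.440 for numbers 1, 2 and 3, against -0.640 to 0.307 otherwise), so the numbers, from the labels, were taken as pairs for an alternative with a replicate block.

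Alternatives were a pseudocount of 0.1, a mean FPKM of at least 1, quantile normalization, median centring, an ordinary linear model, eBayes without trend, a GC correction (spline with 5 degrees of freedom), the replicate block with and without it, replicates 2 and 3 only, each library left out, and the ratio of group means. The members, lists and alternatives were chosen with earlier results of these data known. Genes named are the members, their overlapping neighbours, the 3 genes most like *Nkiras2*, and of each list the called genes, the 2 highest and the 1 with the largest difference; *Xiap*, *Spata2*, *Ube2v1*, *Chuk*, 6 further measured targets and the targets not listed were named after their values were seen. No set test was run.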

Additional observations from a re-analysis of the deposited data

How the results depend on the processing

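Of the 9 members other than *Nkiras2*, 0 were called in the main analysis and under each of the 16 alternatives with a test. The log2 fold change of *Nkiras2*, whose sign its choice and its separate groups fix, was -0.53 to -0.37 with each library left out in turn and -0.57 as the ratio of group means. With the replicate block it was -0.43, the block leaving point estimates as they were. The direction of small differences depended on the setting. Correcting for GC content reversed, both alone and together with the replicate block, *Nfkbib* (0.046), *Nfkb2* (0.080), *Relb* (0.015) and *Tnfaip3* (-0.080). Replicates 2 and 3 only reversed *Nfkb2* (0.00022) and *Tnfaip3* (-0.12), and quantile normalization and median centring reversed *Tnfaip3* (-0.048 and -0.039). With each library left out, the ranges that crossed 0 were -0.24 to 0.027 for *Nfkbia* (reversed without C3G replicate 3), -0.16 to 0.017 for *Nfkbib* (without control replicate 1), -0.15 to 0.095 for *Nfkb2* (without control replicate 1 or C3G replicate 3), -0.19 to 0.075 for *Relb* (without control replicate 1 or C3G replicate 2 or 3) and -0.10 to 0.11 for *Tnfaip3* (without control replicate 1). That of *Nkiras1* stayed below 0, at -0.22 to -0.017, and it was -0.28 with the GC correction. Those of *Nfkb1* (-0.34 to -0.0085) and *Ikbkb* (-0.10 to -0.025) also stayed below 0, and that of *Rela* stayed above it (0.011 to 0.15). *Rela* had 0.21 with the GC correction, and *Ikbkb* had -0.15 with quantile normalization.

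Over all genes 73 were called, against 48 with the ordinary linear model, 135 with the GC correction, 169 with the replicate block, 246 with the block and the GC correction, 191 with replicates 2 and 3 only, and 40 to 144 with 1 library left out (144 without control replicate 1, 127 without control replicate 2, 45, 40 and 43 without C3G replicates 1, 2 and 3). Of these calls 45 were higher and 28 lower; the split was 30 and 30 with quantile normalization, 67 and 68 with the GC correction, and 88 and 103 with replicates 2 and 3 only. The adjusted count stayed at 0 in each of these fits. Of the 80 further pathway genes 1 was called, against 2 with the replicate block (*Tlr4* added, and lost again when the GC correction was fitted with the block), 2 with replicates 2 and 3 only (*Spata2* added, log2 fold change -0.28), and 1 to 2 with 1 library left out (*Xiap* added without C3G replicate 2). The block changed no other call among the 9 tested members and the 80 further pathway genes. The cause of these shifts was not tested. Depth is unknown, so no counting error can be given.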
